A study of Mus musculus with 2 samples.

Results

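One-sided promoter peaks are DNase-seq peaks that lie at the start of a single protein-coding gene and have no protein-coding start facing the other way nearby. A peak was a member when its midpoint lay within 1000 bp of annotated starts of exactly 1 protein-coding gene, and when no start of another protein-coding gene lay on the opposite strand within 1000 bp of the nearest of these starts. Replicate 1 had 28222 members among 140127 peaks and replicate 2 had 25105 among 114404, a mean of 26664 ± 2204 (SD, n = 2). They made up 20.1% and 21.9% of all peaks, and 91.2% and 90.6% of the peaks within 1000 bp of a protein-coding start. Paired values are given for replicate 1 and then for replicate 2.

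DNase I cuts DNA that is not wrapped in a nucleosome, so active promoters and enhancers appear as short stretches rich in cuts. At an active promoter, transcription factors and the general transcription machinery hold open a nucleosome-depleted region just upstream of the start, and a positioned nucleosome usually follows downstream. A DNA-bound protein can protect its own site from cutting inside such a stretch, and that protected gap is called a footprint. Most mammalian promoters are rich in CpG dinucleotides, while a minority carry a TATA box, which fixes the start a short way downstream.

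The samples were cerebellum tissue, with its cell types mixed, from 2 male B6CASTF1/J mice aged 36 days, an F1 hybrid of the C57BL/6J and CAST strains. Each animal gave 1 library, and both belong to 1 group with no treatment or mutation named. The labels number the males differently and name biological replicates 1 and 2, yet 1 donor record stands for both, and part of the spread may be technical. For replicate 1 the label also names a pair of sequencer models. With a single group there is nothing to test between conditions. Peaks of 1 animal are not replicates, so all differences between kinds of peak below are descriptions.

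The 5 highest members found in both animals, by mean rank of height, show what these regions look like as sequence. Peak height is the authors' own signal value for each peak, used here within an animal. Dynlt1b, a dynein light chain gene of a family with near-identical copies, had the highest member, with heights of 76.7 and 50.5. Because of those copies its assignment to 1 family member is uncertain. Bahcc1, a chromatin protein gene, had 60.5 and 31.1, and Hjurp, whose product loads the centromeric histone, had 54.1 and 38.2. Nup107, a nuclear pore gene, had 56.4 and 29.7, and Fzr1, an activator of the anaphase-promoting complex, had 47.3 and 29.0. For 4 of these members the part upstream of the nearest start is shown in the direction of the gene, with the bases that lay inside a footprint in both animals in capitals. The stretches are chr11:120232681-120232880 on the plus strand for Bahcc1, chr1:88277634-88277760 on the minus strand for Hjurp, chr10:117792761-117792940 on the minus strand for Nup107 and chr10:81378521-81378780 on the minus strand for Fzr1, all in the reference sequence GRCm38.p6 (mm10) from RefSeq.
Bahcc1: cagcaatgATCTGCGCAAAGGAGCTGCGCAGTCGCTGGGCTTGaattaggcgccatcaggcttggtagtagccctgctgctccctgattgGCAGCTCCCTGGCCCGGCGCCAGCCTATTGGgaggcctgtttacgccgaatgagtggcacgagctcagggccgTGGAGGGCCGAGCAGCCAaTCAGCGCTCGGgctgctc
Hjurp: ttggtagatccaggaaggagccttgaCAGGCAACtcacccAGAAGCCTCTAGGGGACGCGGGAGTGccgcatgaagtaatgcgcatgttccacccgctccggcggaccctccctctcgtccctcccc
Nup107: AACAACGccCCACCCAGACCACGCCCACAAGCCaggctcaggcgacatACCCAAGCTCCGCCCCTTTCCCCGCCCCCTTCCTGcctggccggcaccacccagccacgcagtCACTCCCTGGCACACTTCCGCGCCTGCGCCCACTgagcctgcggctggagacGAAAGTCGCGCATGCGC
Fzr1: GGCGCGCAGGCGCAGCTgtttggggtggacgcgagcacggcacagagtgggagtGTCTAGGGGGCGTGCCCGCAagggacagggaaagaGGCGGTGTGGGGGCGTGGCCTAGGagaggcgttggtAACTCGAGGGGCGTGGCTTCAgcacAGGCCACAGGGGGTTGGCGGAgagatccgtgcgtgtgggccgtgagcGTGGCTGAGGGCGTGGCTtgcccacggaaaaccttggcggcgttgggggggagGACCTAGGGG
Footprints in both animals covered 47.5% of the bases shown for Bahcc1, 26.8% for Hjurp, 65.0% for Nup107 and 50.4% for Fzr1. Over all members, 18.8% and 16.6% of bases lay in a footprint of the same animal. The capitals at the downstream end of the Nup107 stretch hold GCGCATGCG, a part of the site of the activator NRF1. None of these stretches overlapped an annotated exon of its gene. The printed letters are those of the reference strain, and the CAST allele of these hybrid animals may differ.

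A contrasting sequence comes from Degs1, a dihydroceramide desaturase gene. Its member spanned the start and had heights of 3.47 and 2.38 but no footprint in either animal. By mean rank it was among the 3 highest such members shared by both animals. The bases of that member upstream of the start, chr1:182282225-182282340 on the minus strand, are therefore all in lower case.
Degs1: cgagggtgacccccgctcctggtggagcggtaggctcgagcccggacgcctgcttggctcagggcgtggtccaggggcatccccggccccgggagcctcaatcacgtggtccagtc
The other 2 lay downstream of starts. The Map2 member, at a start of a neuronal microtubule protein gene, had heights of 3.17 and 2.85 at 225 and 245 bp. The Emc2 member, at a start of an endoplasmic reticulum membrane complex gene, had 3.14 and 2.58 at 322 and 312 bp. By height these 3 ranked between 9811 and 11033 in the animals' lists.

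Members gathered in the first 100 bp upstream of the start, and the rest were spread more downstream than upstream. The bin from -100 to -1 bp held 26.2% and 27.8% of midpoints. The median offset was -5 and -10 bp, a mean of -7.5 ± 3.5 bp, and 51.5% and 53.4% of midpoints lay upstream, a mean of 52.4% ± 1.4 (SD, n = 2 each). In position classes, the core from -150 to +50 bp held 39.3% and 41.3% of members. The downstream class, beyond +50 bp, held 39.96% and 38.1%, against 11.02% and 10.9% between -500 and -150 bp and 9.74% and 9.71% farther upstream.

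**Figure D1:**
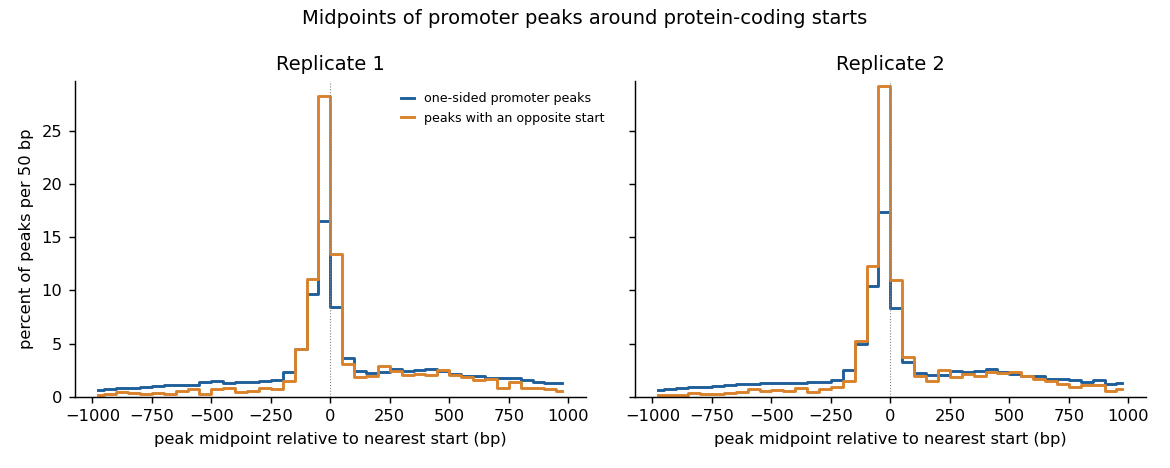
Percent of peak midpoints per 50 bp (y axis) against distance from the nearest protein-coding start in bp (x axis, negative upstream), one panel per animal, for one-sided promoter peaks (blue) and promoter peaks with an opposite protein-coding start (orange). Both kinds peak just upstream of the start, and the one-sided peaks have the lower maximum and a larger share far upstream.

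Peaks that share their promoter with an opposite protein-coding start were more concentrated. Of one-sided members 39.3% and 41.3% lay in the core, against 57.5% and 57.9% of the 2453 and 2380 opposite-start peaks. Beyond -500 bp lay 9.74% and 9.71% of one-sided members, against 3.71% and 3.40% of opposite-start peaks, as the plot of midpoints shows. Offsets are taken from the nearest start, so a peak between opposite starts is placed by the nearer one. A peak beyond the opposite start can also be placed by that start. Part of the higher core share and of the lower share far upstream thus follows from this rule.

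Median height was highest near the start, although heights varied widely within a position class. In the core the lower and upper quartiles were 1.90 and 14.4 in replicate 1, and 1.77 and 9.86 in replicate 2. Members with a midpoint from -100 to -1 bp had a median height of 8.39 and 5.94. Beyond the core the medians were near 1: 1.07 and 1.04 downstream, 1.49 and 1.54 between -500 and -150 bp, and 0.753 and 0.790 farther upstream. Members that covered the start base made up 40.7% and 43.4% of all. Their median height was 6.35 and 4.87, against 1.04 and 1.02 for members that did not cover it. In the outermost 50 bp of the window the 552 and 475 members had median heights of 0.729 and 0.810, against 0.715 and 0.770 for the peaks in the next 50 bp outside it.

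As a class, one-sided members were intermediate in height. Their median was 1.81 and 1.70, a mean of 1.75 ± 0.079 (SD, n = 2), against 6.23 and 4.84 for opposite-start peaks and 0.645 and 0.770 for peaks away from protein-coding starts. The median of one-sided members depended on the setting, with 2.70 in the smaller peak list and 2.78 in a window of 500 bp as means of both animals, and the other kinds of peak were not recomputed there. Within the core the medians were 7.18 and 5.40 for one-sided members, against 12.2 and 8.54 for opposite-start peaks. Downstream of the start they were 1.07 and 1.04, against 1.27 and 1.10 for opposite-start peaks. The difference between both kinds of promoter was thus widest in the core. One-sided members, the larger class of promoter peaks, held 60.7% and 59.7% of the 10000 highest peaks. Opposite-start peaks held 10.1% and 10.2%, and peaks away from starts 28.4% and 29.4%. Within each class, 21.5% and 23.8% of one-sided members were among these 10000. The same held for 41.2% and 43.0% of opposite-start peaks and 2.60% and 3.39% of peaks away from starts.

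Footprints were found in 79.4% and 72.7% of members, a mean of 76.0% ± 4.8, at a density of 1.20 and 1.10 per 100 bp, a mean of 1.15 ± 0.070 (SD, n = 2 each). Opposite-start peaks had footprints in 83.5% and 77.1%, at 1.43 and 1.33 per 100 bp, and peaks away from starts had them in 77.8% and 72.1%, at 1.09 and 0.976 per 100 bp. The share of members with a footprint therefore differed less between kinds of peak than between animals, while the density was highest in opposite-start peaks in both. A member held a median of 3 and 2 footprints and at most 18 and 16.

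The number of footprints depended strongly on height. In the lowest of 5 equal height classes 55.5% and 34.0% of members had a footprint, and in the highest class 99.9% and 99.98%. Density in these classes was 0.538 and 0.264 per 100 bp in the lowest and 2.09 and 2.07 in the highest. The part of cut number in this was not tested.

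Footprints differed by position within a height class as well, although heights were not matched between positions inside a class. In the middle height class, which spanned 1.18 to 2.99 and 1.19 to 2.73, core members had a footprint in 91.2% and 90.4% of cases and 1.24 and 1.19 footprints per 100 bp. Downstream members of the same height class had one in 69.3% and 65.4%, at 0.671 and 0.633 per 100 bp. Members of that class between -500 and -150 bp stood between them at 84.2% and 82.8%. In the highest class the gap was small, with 2.10 and 2.08 per 100 bp in the core and 2.04 and 2.04 downstream. In the lowest class 62.6% and 39.1% of core members had a footprint. There downstream members, at 53.6% and 34.1%, were level with those between -500 and -150 bp in replicate 1, at 53.7%. They were above them in replicate 2, at 30.2%.

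Footprint centres lay at a median of -19 and -29 bp from the start, a mean of -24 ± 7.1 bp (SD, n = 2), and 55.1% and 58.6% of them lay upstream. The first 100 bp upstream held 26.1% and 28.5% of all footprints in members, and the first 100 bp downstream 18.5% and 18.96%. Per kb of member sequence the density was 18.2 and 18.4 in the 25 bp just upstream of the start. Its lowest value was 6.16 in replicate 1, from 575 to 599 bp downstream, and 4.50 in replicate 2, from 625 to 649 bp downstream. Footprints were 13 and 12 bp wide at the median, from 7 bp up to 82 and 76 bp.

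**Figure D2:**
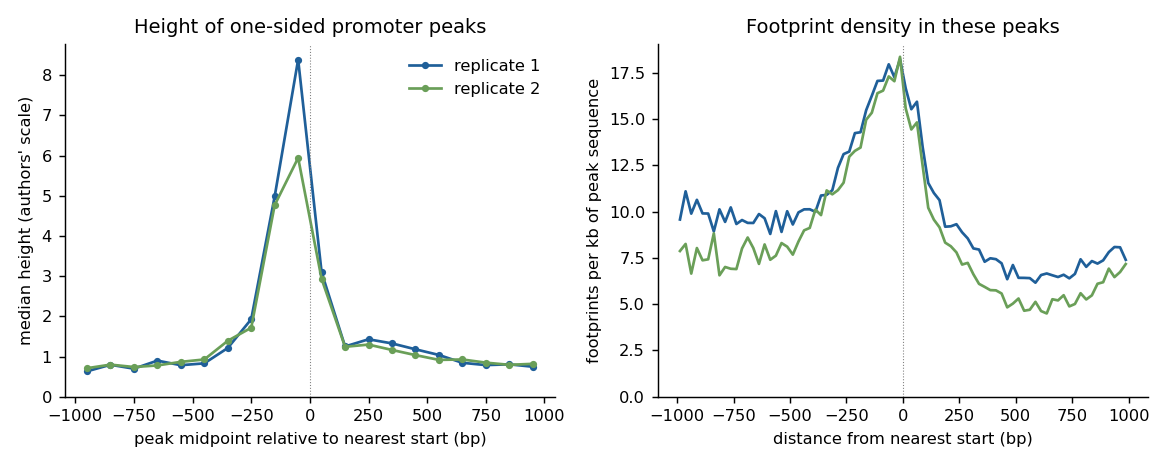
Median height of one-sided promoter peaks in 100-bp bins of midpoint position (left, y axis on the authors' scale) and footprint centres per kb of peak sequence in 25-bp bins (right) against distance from the nearest start in bp, with 1 line per animal. Both measures are highest just upstream of the start, and footprint density is lower downstream than at like distances upstream.

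Downstream members were divided between exons of their gene and other sequence. Of the 11278 and 9571 downstream members, 20.8% and 17.6% had their midpoint in a coding exon and 26.8% and 27.3% in a non-coding part of an exon. The other 52.4% and 55.1% lay in no exon of the gene. Those in non-coding exon parts were the higher ones, at a median of 1.42 and 1.30, against 0.878 and 0.968 in coding exons. They also had more footprints, 1.05 and 0.897 per 100 bp against 0.687 and 0.574 in coding exons.

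The false discovery rates of the cut rate, deposited for stretches below 0.05, give the extent of open DNA base by base, beyond the edges of the peaks. The one-sided starts below were chosen for having a member, so their level near 0 bp follows from that choice. For the 11439 genes with a member in both animals, the start nearest the gene's highest member was accessible at its own base in 93.1% and 90.5% of cases. The profile around it was lopsided. At -500 bp 35.1% and 36.8% were accessible, against 64.3% and 59.8% at +500 bp. The share stayed above 50% of its maximum from -400 to +650 bp and from -420 to +640 bp.

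Starts with an opposite protein-coding start had a symmetric profile. Their share stayed above 50% of its maximum from -610 to +600 bp and from -640 to +630 bp. At -500 bp 35.1% and 36.8% of one-sided starts were accessible, against 58.8% and 59.7% of the 2493 starts with an opposite start. At +500 bp the shares were close, 64.3% and 59.8% against 58.6% and 59.9%. Both starts of an opposite pair can be counted, each in its own direction, so the symmetry can follow from this choice. By their own profile, one-sided starts had a shorter open stretch upstream than downstream. Starts with an opposite start were taken with or without a peak, so the levels of both profiles are less comparable than their shapes.

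**Figure D3:**
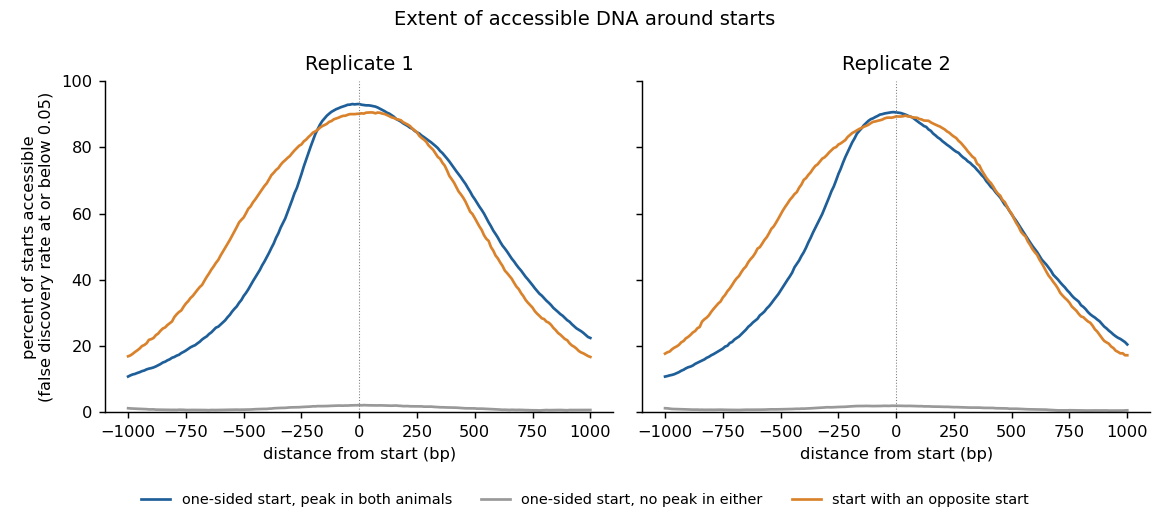
Percent of starts whose base at each distance (x axis, bp) was accessible at a false discovery rate at or below 0.05 (y axis), per animal, for one-sided starts with a peak in both animals (blue), one-sided starts with no peak in either (grey) and starts with an opposite protein-coding start (orange). The blue curve falls off sooner upstream than downstream, the orange curve falls off alike on both sides, and the grey curve stays near 0.

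Some members had an opposite start of a non-coding gene within 1000 bp, which the membership rule allowed. They numbered 3824 and 3455, or 13.5% and 13.8%. Their median height was 2.18 and 1.99, against 1.75 and 1.65 for the other members. Their core share was 38.7% and 40.5%, against 39.4% and 41.5% for the others, so they resembled the other members in position more than opposite-start protein-coding peaks did. However, their offsets were never taken from the non-coding start, while those of opposite-start peaks could be taken from either protein-coding start. The smaller set facing a gene annotated as a bidirectional promoter lncRNA, 384 and 366 members, had medians of 3.48 and 2.72.

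Of 20247 protein-coding genes with a start that qualified, 12366 and 11591 had a member, or 61.1% and 57.2%. Both animals shared 11439 of these genes, and 927 and 152 genes had a member in that animal only. A single member was found at 34.5% and 38.5% of genes with any, and 6 or more at 3.49% and 2.67%. Neighbouring members of a gene had midpoints a median of 530 and 540 bp apart, and the second highest had 30.4% and 31.7% of the height of the highest at the median. The highest member of each gene was mostly at the core, in 66.7% and 69.1% of genes, while of the other members 17.9% and 17.5% lay there.

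The 5 genes with most members had from 4 to 18 annotated starts. Ank2, which encodes an ankyrin, had 15 and 17 members at 7 and 8 of its 14 annotated starts. Gramd1b, a sterol transport gene, had 15 and 14, Nedd4l, a ubiquitin ligase gene, 15 and 11, Pde10a, a phosphodiesterase gene, 16 and 10, and Dpp6, a potassium channel partner, 12 and 14. Their members were mostly low. Medians within these genes lay between 0.759 and 1.84, and the highest single members were 12.7 at Nedd4l in replicate 1 and 8.80 at Pde10a in replicate 2.

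CpG content of the start set apart genes with and without members. Genes were put into 5 equal classes by observed over expected CpG within 500 bp of their most upstream qualifying start. In the class with fewest CpG 11.9% and 9.83% of genes had a member, and in the class with most 97.3% and 95.5%. The highest member of such genes had a median height of 1.39 and 1.53 in the first class and 12.9 and 8.54 in the last. Footprint density in these highest members was 1.49 and 1.34 per 100 bp in the first class and 1.97 and 1.92 in the last, a smaller step than in height. Members in general had a median observed over expected CpG of 0.704 and 0.714, against 0.233 and 0.220 in peaks away from starts.

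The TATA box showed the reverse relation. TATAAA on the gene strand between 20 and 40 bp upstream was counted at the most upstream qualifying start of each gene. It stood at 123 of 11439 such starts of genes with a member in both animals, or 1.08%. For genes without a member in either it stood at 376 of 7729, or 4.86%. In the shares by CpG class below, a start with a member is likewise that of a gene with one, which may lie at a later start. Within the class with fewest CpG it stood at 8 of 358 starts with a member, or 2.23%, and at 222 of 3525 without, or 6.30%. In the next 2 classes it stood at 2.98% and 0.868% of starts with a member, against 4.26% and 3.03% without. In the CpG-rich classes few starts had no member, and the difference was small or turned round. There TATAAA stood at 33 of 3626 and 31 of 3862 starts with a member, against 3 of 257 and 0 of 106 without. Footprints over the box were counted in another set, the 179 and 147 starts that had both TATAAA and a member. Where the box lay inside a member, its centre was in a footprint at 33 of 95 starts in replicate 1 and 28 of 90 in replicate 2, or 34.7% and 31.1%.

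The highest members at TATA starts belonged to Btg1, an antiproliferative gene, with heights of 32.9 and 21.7, to Mknk2, a kinase gene acting on translation, with 35.9 and 18.6, and to Mylip, a ubiquitin ligase gene for the LDL receptor, with 27.3 and 18.6. Their TATAAA began at -31, -30 and -32 bp. For each of 4 motifs a start is shown that was chosen for the height of its member. The motif, in capitals, lay in a footprint in both animals and in its densest 20-bp bin, given below. Motifs outside that bin were not candidates, so higher members can hold a motif in a footprint elsewhere. The stretches are chr10:96616926-96617015 on the plus strand for Btg1, chr3:90433604-90433693 on the minus strand for Ints3, an Integrator subunit gene, chr11:53430818-53430867 on the minus strand for Uqcrq, a respiratory complex subunit gene, and chr4:139380674-139380699 on the plus strand for Ubr4, a ubiquitin ligase gene.
Btg1: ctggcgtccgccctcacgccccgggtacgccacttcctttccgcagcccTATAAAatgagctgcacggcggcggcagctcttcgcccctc
Ints3: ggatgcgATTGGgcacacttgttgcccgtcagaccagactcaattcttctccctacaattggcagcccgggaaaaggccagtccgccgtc
Uqcrq: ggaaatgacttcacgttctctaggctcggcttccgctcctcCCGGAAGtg
Ubr4: agtacgacgaAAGATGGCGacgagcg
The Btg1 stretch shows TATAAA from -31 to -26 bp, and the Ints3 stretch shows a CCAAT box read on the opposite strand from -73 to -69 bp. A further ATTGG, left in lower case, lies nearer the Ints3 start. The Uqcrq stretch shows CCGGAAG, the core bound by ETS factors, from +1 to +7 bp. The Ubr4 stretch shows AAGATGGCG, a part of the site of the factor YY1, from +25 to +33 bp, counting the start as 0.

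These motifs each had a preferred place. They were searched on both strands from -300 to +99 bp of 10794 genes whose highest members in both animals shared the same nearest start. TATAAA was densest from -40 to -21 bp, with 11.95 occurrences per 1000 starts, and 108 of the 129 there were on the gene strand. CCAAT was densest from -80 to -61 bp at 72.2 per 1000 starts, with 400 of 779 on the gene strand. The TATA box thus lay mainly in 1 direction, and the CCAAT box lay almost equally in both.

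GGGCGG, the core bound by SP and KLF factors, was the most frequent, with 196 occurrences per 1000 starts from -60 to -41 bp, and 71.2% of starts held it. GCGCATGCG, the NRF1 part, was densest in the same bin at 8.52 per 1000 starts, and a full GCGCATGCGC counts once on each strand. CCGGAAG was densest from 0 to +19 bp at 33.5 per 1000. AAGATGGCG was densest from +20 to +39 bp at 9.82 per 1000, and 92 of these 106 were on the gene strand. YY1 sites were thus both downstream and directional. The palindrome TGACGTCA, the cAMP response element, was densest from -20 to -1 bp at 6.21 per 1000.

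**Figure D4:**
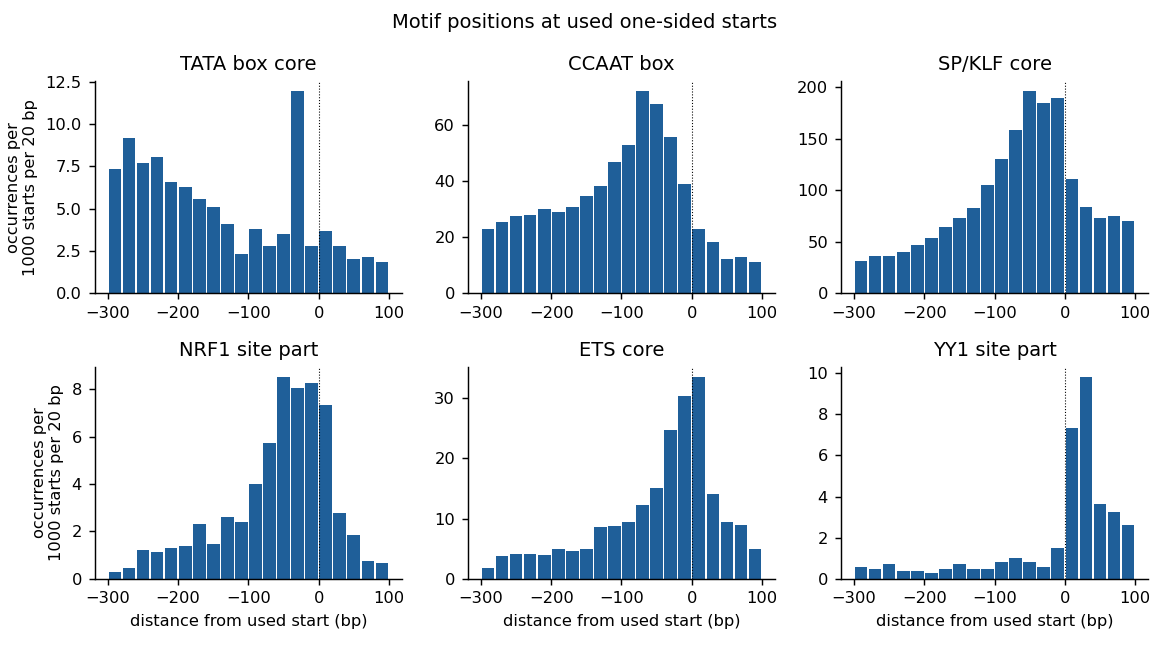
Occurrences of 6 motifs per 1000 used one-sided starts in 20-bp bins (y axis) against distance of the motif centre from the start in bp (x axis), both strands together. The TATA box core has a narrow maximum just upstream of the start and is also frequent farther upstream. CCAAT, SP/KLF and NRF1 have broad maxima upstream, the ETS core peaks at the start and the YY1 part peaks downstream of it.

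Motif occurrences inside members differed in how often a footprint covered them. NRF1 parts were covered in 92.9% and 93.1% of cases and cAMP response elements in 78.9% and 86.6%. YY1 parts followed at 56.1% and 56.9%, SP/KLF cores at 44.6% and 42.3% and ETS cores at 40.4% and 39.5%. CCAAT boxes, at 24.9% and 23.6%, were nearer to the share of all member bases in footprints, 18.8% and 16.6%, and CAGATG, at 19.3% and 18.6%, was close to it. TATAAA, at 13.3% and 11.7%, and TGACTCA, the AP-1 site, at 7.34% and 6.85%, were below it.

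The same motifs separated starts of genes with and without members. Windows ran from -250 to +49 bp of each gene's most upstream qualifying start. GGGCGG stood in 60.4% of windows where the gene had a member in both animals, in 11.8% where it had none and in 40.5% of all. CCGGAAG stood in 14.0%, 2.65% and 9.12% in the same order, TGACGTCA in 3.21%, 0.867% and 2.19%, GCGCATGCG in 3.09%, 1.28% and 2.27%, and AAGATGGCG in 2.19%, 0.401% and 1.41%. TATAAA went the other way at 7.72%, 22.4% and 13.7%, and CCAAT hardly differed at 37.8%, 40.4% and 38.6%. Other motifs searched were TGACTCA with 3.33%, 6.83% and 4.73%, and CAGATG, an E-box form bound by NeuroD factors, with 12.6%, 20.5% and 15.8%. The MEF2 form CTATTTATA stood in 0.280%, 0.712% and 0.459%, and the RFX part GTTGCCATG in 0.752%, 0.414% and 0.612%. Starts of genes with a member were also richer in CpG, with a median observed over expected CpG of 0.702 against 0.178 without one. The part of base composition in these shares was not tested.

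Gene lists differed widely in how often they had members and how high these were. In bulk tissue, fewer cells of a type and less accessibility per cell cannot be told apart. All 17 housekeeping, 15 immediate early and 20 synapse and neuronal genes with a qualifying start had a member in both animals, against 61.1% and 57.2% of all such genes. The medians of their highest members were 24.0 and 15.8 for housekeeping, 14.6 and 10.95 for immediate early and 11.5 and 8.67 for synapse genes, against 7.64 and 5.71 over all genes with a member. In these 3 lists Rplp0, a ribosomal protein gene, Eef2, an elongation factor gene, and Ppia, a peptidyl-prolyl isomerase gene, were highest among housekeeping genes at 35.6 and 22.7, 34.8 and 19.4, and 28.9 and 17.3. Among immediate early genes they were the transcription factor genes Jun, at 32.3 and 20.3, and Jund, at 29.3 and 17.0, with the phosphatase gene Dusp1 at 28.9 and 17.8.

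Granule cells are the most numerous neurons of the cerebellum. All 19 qualifying genes of the list named for them had a member in both animals, with medians of 6.90 and 4.94. The Rac activator gene Tiam1 was highest at 27.9 and 17.4, followed by the transcription factor gene Neurod1 at 20.6 and 12.6 and by Cbln1, a synapse organiser, at 18.6 and 11.3. The Tiam1 member lay at -522 and -542 bp, outside the core. Among the highest of the synapse genes were the vesicle genes Vamp2, at 19.4 and 10.7, and Rab3a, at 14.6 and 12.8.

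Lists of other neurons had lower members. Purkinje cell genes had members at 17 and 16 of 20 genes, with medians of 3.15 and 1.88. Itpr1, the calcium release channel gene, was highest at 16.0 and 12.49, then Lhx1 at 13.0 and 9.86 and Rora at 9.33 and 5.93, both transcription factor genes, while Pcp2 and Ppp1r17 had no member. Interneuron and unipolar brush cell genes had 11 and 8 of 15, with medians of 0.791 and 0.647. Calb2 was highest at 12.4 and 7.01, then Pvalb at 2.54 and 1.47, both calcium-binding protein genes, and Nxph1 at 1.75 and 1.40, while Ptf1a and the glycine transporter gene Slc6a5 had none.

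Glial lists were mixed. Astrocyte and Bergmann glia genes had members at 16 and 15 of 16, with medians of 0.921 and 1.10. The transcription factor genes Nfia, at 22.3 and 14.3, and Nfib, at 11.9 and 7.83, and the regulator gene Id4, at 11.2 and 7.98, were far above the list's median. Oligodendrocyte lineage genes had 11 and 10 of 17, led by the myelin gene Mbp at 5.39 and 2.77, with Myrf at 3.45 and 1.76 and Olig1 at 2.60 and 1.43, and with none at Ermn and Gpr17.

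The sparsest lists were those of microglia, endothelium, liver and germ cells. Microglial genes had members at 3 and 2 of 16, among them the transcription factor gene Irf8 at 2.43 and 1.42, with none at Aif1 and C1qa. Endothelial and mural genes had 8 and 6 of 18, all low, with Erg at 1.29 and 0.523, Flt1 at 1.14 and 0.474, Kcnj8 at 0.851 and 0.415, and none at Abcc9 and Acta2. Liver genes had 2 and 2 of 19, Apob at 2.22 and 1.22 and Apoc3 at 0.981 and 0.741, with none at Ahsg and Alb. Germline genes had 5 and 2 of 20. Of these, Dazl, a germ cell RNA-binding protein gene, stood apart at 11.8 and 6.95, against 0.401 and 0.286 at Sycp3, and Acrv1 and Akap4 had none.

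**Figure D5:**
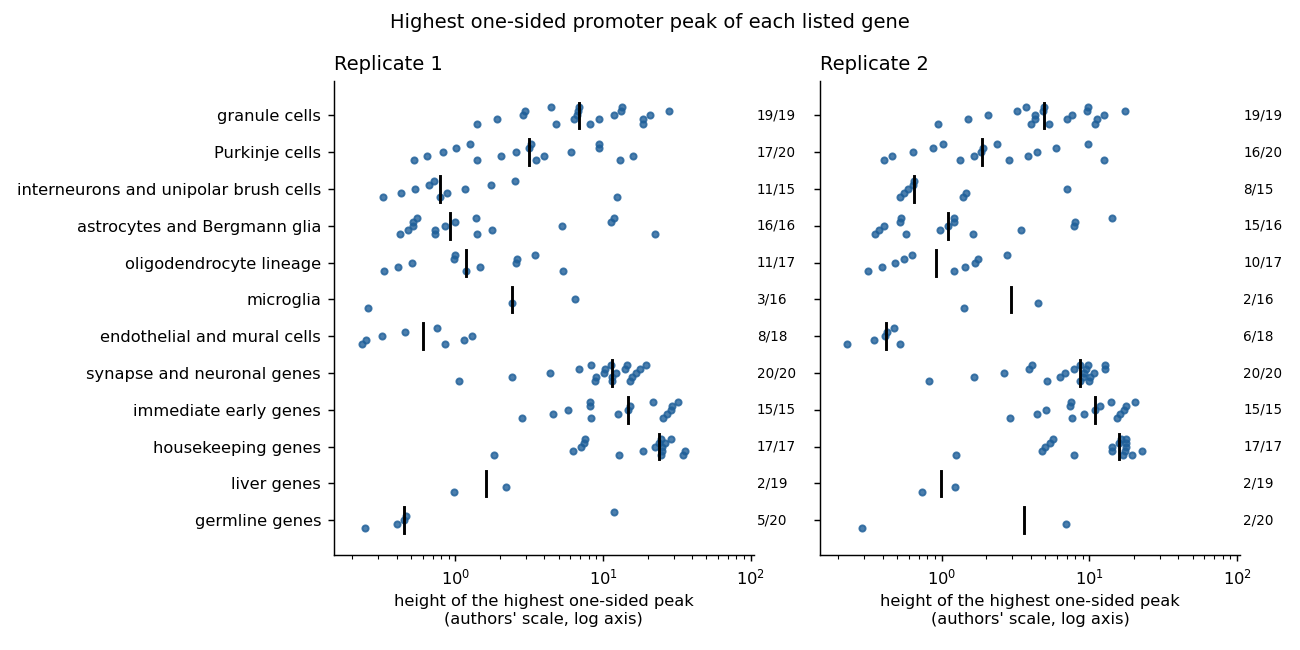
Height of the highest one-sided promoter peak of each listed gene (x axis, authors' scale, log axis) by gene list (y axis), 1 panel per animal, with black bars at the list's median over genes with a peak and the count of genes with a peak out of those with a qualifying start at the right. Housekeeping, immediate early and synapse genes lie to the right, and endothelial genes lie at the low end.

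Members far from the start can be as high as core members. Upstream, the highest shared members beyond -500 bp were at Rprd2, a gene of an RNA polymerase regulator, with heights of 42.7 and 24.1 at -643 and -653 bp. They were followed by C1qtnf6, a C1q-related secreted protein gene, with 35.5 and 20.1 at -905 and -895 bp, and Mnt, a repressor of the Myc network, with 31.3 and 21.7 at -509 bp in both. Downstream, Foxn3, a forkhead repressor gene, had 31.6 and 21.4 at 941 bp in both animals. Gtf2ird2, a transcription factor gene, had 30.5 and 18.99 at 524 bp, and Carns1, the carnosine synthase gene, had 33.2 and 17.5 at 517 bp. All 6 of these members were found with midpoints at most 10 bp apart in both animals.

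The members with most footprints were broad, and their heights varied. The member of Abtb1, 700 and 660 bp wide, held 17 and 13 footprints at heights of 18.3 and 15.8. The member of Zfp827, a zinc finger gene, held 15 in both animals over 740 and 860 bp at heights of 2.36 and 1.98. The member of Slc12a2, the sodium, potassium and chloride cotransporter gene NKCC1, held 13 and 16 over 560 and 720 bp at heights of 5.28 and 3.56.

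On the X chromosome, most of which males carry in a single copy, members were lower. The highest member of X-linked genes had a median height of 3.26 and 2.72, against 7.94 and 5.88 for autosomal genes, or 41.02% and 46.3%. X-linked genes also had a member less often over all CpG classes, 49.2% and 44.9% against 62.2% and 58.4% of autosomal genes. In both CpG-rich classes this gap was small or absent. The shares were 97.1% and 97.1% of X-linked against 97.3% and 95.5% of autosomal genes in the class of most CpG, and 92.4% and 89.6% against 93.3% and 90.1% in the next. Within the class of most CpG, where 68 of 70 X-linked genes had a member in each animal, the X-linked medians were 42.4% and 43.1% of the autosomal ones, and in the next class 52.8% and 56.1%. In the middle class they were 67.2% and 64.6%, in the second 63.9% and 62.6%, and in the class of fewest CpG, with 23 and 16 X-linked genes, 35.7% and 69.3%. In males copy number and chromosome cannot be told apart. Among the highest X-linked members was that of Kdm6a, a histone demethylase gene, with 21.6 and 14.5. The member assigned to Gm21887, a predicted gene in the pseudoautosomal region that males also carry on the Y chromosome, had 30.3 and 26.9, with 0 and 4 footprints and widths of 60 and 320 bp.

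Both animals gave much the same members. Of the members 77.8% and 87.5% overlapped a member of the same gene in the other animal by at least 1 bp, a mean of 82.6% ± 6.9 (SD, n = 2). Over the 21943 matched members of replicate 1, Spearman's rho of heights was 0.979, a description across peaks of 2 libraries. Their midpoints were a median of 10 bp apart. Members without a match were low, with medians of 0.472 and 0.484, against 3.11 and 2.20 for matched ones. Of footprint centres in matched members, 55.6% of those in replicate 1 lay inside a footprint of replicate 2 and 67.8% of those in replicate 2 inside one of replicate 1, a stricter match than the overlap used for peaks.

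The highest members without an overlapping peak in the other animal were not closed there. In replicate 1 they were at Garem1, at 28.1, and G3bp1, a stress granule gene, at 25.7. In replicate 2 they were at Rab40c, at 22.1, and Zfp446, at 7.72. Every base of all 4 was accessible in the other animal at the limit of 0.05, where 6, 4, 3 and 5 footprint centres lay inside. The nearest peak of the other animal touched the Garem1 and G3bp1 members and lay 160 bp from that of Rab40c and 80 bp from that of Zfp446, with heights of 18.95, 19.9, 47.1 and 27.3. Whether each of these members was the same peak placed elsewhere, or a further peak called in only 1 animal, was not tested.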

How the data were processed

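DNase-seq was measured in 2 libraries, 1 per animal. Per the deposited file descriptions, each animal's files derive from its own alignments on mm10, with no pooling. Aligner and peak caller: not given in the sources used here. The authors deposited a signal (the height of each peak), and p-value type entries: false discovery rates, listed only below 0.05, and the same entry of 0.01 for every footprint, so footprints were used by position alone.

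Members came from the larger peak list and GENCODE M21 starts of protein-coding transcripts. A footprint belonged to the member that held its centre. Sequence was RefSeq GRCm38.p6, in which 32851 of 32851 RefSeq promoter entries matched. Python 3.11.15, numpy 2.4.6 and pandas 2.3.3 were used, and class, offset and footprint assignment were tested on simulated data.

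The members, gene lists and motifs were chosen with earlier results of these data known. Genes were named by rule: highest shared members of all, at TATAAA, on X, without a footprint, beyond 500 bp and by list, most members, most footprints, and highest in 1 animal only. Some items that this rule names are not reported here. The motif examples were chosen after the motif positions were seen. Depth is unknown. Heights lay within 0.1 of whole multiples of 0.00542 and 0.00988, and the median member had 334 and 172 such steps.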

Additional observations from a re-analysis of the deposited data

How the results depend on the processing

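Values here are means of both animals. Of 51 values recomputed under another setting, 38 stayed within the limit set for them, 12 moved beyond it and 1 changed sign. That limit was 1 SD between animals, and for the number of members a factor of 1.5. The number of members, 26663.5, was 21872.5 with the smaller peak list, 20084.5 with a window of 500 bp, 32255.5 with one of 2000 bp and 22858 with opposite starts of any gene type, each farther off than the spread between animals. With the smaller peak list, the share upstream was 54.3%, the median height 2.70 and the footprint density 1.31 per 100 bp. With a window of 500 bp the share upstream was 58.04%, the median offset -17 bp, the median height 2.78, the share with a footprint 81.6% and the density 1.31 per 100 bp. With a window of 2000 bp the share upstream was 49.6%, the median height 1.44 and the median offset 1.25 bp. That offset was 5 bp in replicate 1 and -2.5 bp in replicate 2, so only replicate 1 turned downstream. The balance of upstream and downstream midpoints thus depends on the window. The median height was 1.87 with starts of the basic annotation and 1.91 with the same number of highest peaks, 114404, in both animals. Apart from that count, opposite starts of any gene type, footprints by any overlap and an overlap of 50% of the member moved none of the values tried with them beyond the spread, and single-animal values are those given in the text. No paired analysis was possible because there is 1 group. In replicate 2 15.1% of members had under 50 height steps, against 4.43% in replicate 1, and its part in footprint calls was not tested.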
